A study of Mus musculus with 32 samples.

Results

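The 3 mouse Runx genes, Runx1, Runx2 and Runx3, and Cbfb, the gene of their shared partner subunit, were followed through reprogramming by the open chromatin at their loci. A site belonged to a locus when the centre of one of its peaks lay in the gene body or within 50 kb of it (mouse genome GRCm38). These windows held 186 of the 276187 sites formed by merging the peaks of all 15 deposited peak lists: 57 at Runx1, 71 at Runx2, 31 at Runx3 and 27 at Cbfb.

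RUNX proteins bind DNA through the Runt domain, and the non-DNA-binding subunit CBFβ strengthens that binding. Runx1 is known for the emergence and maintenance of blood cells, Runx2 for bone and cartilage formation, and Runx3 for T cells and sensory neurons. Runx genes are commonly described as having alternative starts, a distal one (P1) and a proximal one (P2), and mesenchymal cells such as fibroblasts are a setting in which Runx1 and Runx2 are active.

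The libraries were ATAC-seq, in which Tn5 transposase cuts accessible DNA, from 32 samples in 15 groups, with 1 peak list for each group. The cells came from mouse embryonic fibroblasts (MEFs), per the labels' protocols OG2-MEFs, a line known to carry a GFP reporter of Oct4, on their way to pluripotency under the OSKM factors (Oct4, Sox2, Klf4 and Myc). In the sorted series OSKM was delivered with an inducible (TetOn) lentivirus. It comprised day 0 cells (2 samples with shRNA control, named shLuci, and 2 with CTCF shRNA), Thy1+ cells (3 and 3, from days 3, 6 and 9), SSEA1-Thy1- cells (2 and 2, days 6 and 9), SSEA1+ cells (2 and 2, days 6 and 9) and GFP+ cells (2 and 2, day 12). Thy1 marks fibroblasts, SSEA1 marks cells on the way to pluripotency and the reporter GFP marks the late cells. Unsorted cells were taken at day 10 with an overexpression control, with CTCF overexpression (pMXs retrovirus) or with CTCF overexpression and Smarca5 shRNA (2 samples each), and at day 12 with control shRNA or Smarca5 shRNA (2 each). CTCF is the DNA-binding insulator protein, whose level these lists do not measure, and Smarca5 (Snf2h) is the ATPase of ISWI remodelling complexes. How OSKM was delivered to the cells of days 10 and 12 is not given in the sources used here.

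A list names its sites but gives no read depth, since every peak was 400 bp wide with a score of 0. No difference between 2 lists therefore has a replicate check, and intervals below are exact 95% Clopper-Pearson intervals that cover counting error over sites only. The list of sites grew and shrank across groups: the control lists held 153652 sites for day 0, 194087 for Thy1+, 150903 for SSEA1-Thy1-, 135422 for SSEA1+ and 91052 for GFP+ cells. With CTCF shRNA the SSEA1+ list was longer, at 183247 sites. A shorter list and fewer open sites cannot be told apart, so the same share over all sites is given beside each share at the 4 loci. The lists of day 0 and sorted cells share peak positions, as do those of day 10 among themselves and those of day 12, so treatments were compared within these sets. Counts of sites common to different sets are given as descriptions only. The labels fitted the marker genes: sites at 10 fibroblast markers numbered 165 at day 0 and 75 in GFP+ control cells, and those at 10 pluripotency markers 83 and 137. Sites at 10 haematopoietic markers numbered 89 and 88, and those at 10 endothelial markers 130 and 92. By another measure, peaks near a start were present at 2 of 9 haematopoietic markers and 4 of 6 endothelial markers at day 0, and at 3 and 4 in GFP+ control cells. At day 0 they were present at 6 of 6 fibroblast and 5 of 8 pluripotency markers, and in GFP+ control cells at 4 and 8. Fewer cells of a type and less open chromatin per cell cannot be told apart in such bulk lists.

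The Runx1 gene lies on chr16:92601466-92826074 (minus strand), and its window holds no other protein-coding gene body. Of its sites, 41 lay in the gene and 16 in the flanks. Runx2 lies on chr17:44495987-44814797 (minus strand) with 56 sites in the gene and 15 in the flanks, and 12 of its sites lay in Supt3, which overlaps its 5′ end. Runx3 lies on chr4:135120645-135177990 (plus strand) with 14 and 17, and 4 of its sites lay in the neighbour Clic4. Cbfb lies on chr8:105170674-105217989 (plus strand) with 7 and 20, and 12 of its sites lay in 5 neighbouring genes. Site density differed little between the windows, at 17.6, 17.0, 19.7 and 18.3 sites per 100 kb for Runx1, Runx2, Runx3 and Cbfb. Exon positions were not used here, so sites inside a gene are described by their distance from its starts.

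The RefSeq promoter table of build GRCm38.p6 (250 bases before to 50 bases after each start) holds 2 starts of Runx1, 129 kb apart, 2 of Runx3, 31.9 kb apart, and 1 each of Runx2 and Cbfb. Any alternative start of Runx2 inside the gene was therefore not examined, and the Runx2 start below is the 1 in that table. RUNX proteins are known to bind the letters TGTGGT or, read on the other strand, ACCACA. The longest run of letters common to the windows of the Runx1 distal, Runx2 and Runx3 distal starts, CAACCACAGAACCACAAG, has 18 letters and holds this motif as a tandem pair. Searched on both strands, it was found in 4 of 32851 promoter windows (0.0122%): those 3 and that of Gm16225, an opposite-strand window over the same Runx3 bases. Since the run was taken from those 3 windows, its presence there was fixed in advance, and the share is a description only. The stretches of 30 bases that hold it are shown because the 3 starts that carry it had a peak in the fewest lists. Capitals mark ACCACA.
Runx1 distal start, chr16:92826025-92826054, minus strand: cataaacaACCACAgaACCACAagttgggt
Runx2 start, chr17:44814583-44814612, minus strand: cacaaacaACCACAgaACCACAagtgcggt
Runx3 distal start, chr4:135120503-135120532, plus strand: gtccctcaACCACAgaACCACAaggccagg

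The run began at base 27 of the Runx1 distal transcript, at base 22 of the Runx2 transcript and at base -136 relative to the Runx3 distal start, where -1 is the base just before it. In all, the Runx1 distal, Runx2 and Runx3 distal windows held 2, 3 and 2 Runx motifs, whereas the Runx1 proximal, Runx3 proximal and Cbfb windows held 0. Among all promoter windows, 16.8% held at least 1 and 1.81% at least 2. The AP-1 motif TGANTCA (both strands), which occurs in 7.81% of windows, was in none of the 6. A match is a description of letters, not of a bound site.

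The starts also differ in base composition. The next sequences show the 250 bases before the distal and the proximal start of Runx1 and Runx3, with each CG dinucleotide in capitals, because the distal start of each gene has fewer of them than its proximal start.
Runx1 distal start, chr16:92826075-92826324, minus strand: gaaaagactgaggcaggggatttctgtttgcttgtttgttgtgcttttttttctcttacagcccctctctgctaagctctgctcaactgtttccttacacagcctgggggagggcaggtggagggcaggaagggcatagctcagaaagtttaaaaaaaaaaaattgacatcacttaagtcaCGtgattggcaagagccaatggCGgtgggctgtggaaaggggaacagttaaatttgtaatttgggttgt
Runx1 proximal start, chr16:92697330-92697579, minus strand: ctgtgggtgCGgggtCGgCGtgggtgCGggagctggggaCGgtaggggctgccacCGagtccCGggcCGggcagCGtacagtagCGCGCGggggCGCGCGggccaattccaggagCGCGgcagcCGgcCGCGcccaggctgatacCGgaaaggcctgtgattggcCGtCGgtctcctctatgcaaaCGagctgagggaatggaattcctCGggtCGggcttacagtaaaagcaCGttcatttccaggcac
Runx3 distal start, chr4:135120395-135120644, plus strand: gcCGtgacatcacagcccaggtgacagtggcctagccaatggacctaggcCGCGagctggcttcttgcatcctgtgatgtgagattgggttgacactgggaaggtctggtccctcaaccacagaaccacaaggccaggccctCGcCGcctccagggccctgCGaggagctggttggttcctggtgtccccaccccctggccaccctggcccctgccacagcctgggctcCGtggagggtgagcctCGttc
Runx3 proximal start, chr4:135152295-135152544, plus strand: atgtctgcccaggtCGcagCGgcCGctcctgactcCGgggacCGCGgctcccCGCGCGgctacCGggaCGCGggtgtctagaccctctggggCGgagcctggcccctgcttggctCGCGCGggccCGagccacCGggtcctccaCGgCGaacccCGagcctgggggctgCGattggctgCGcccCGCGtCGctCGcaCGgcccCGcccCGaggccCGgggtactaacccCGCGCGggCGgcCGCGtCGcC

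Before the start, the distal sequences hold 2 CG dinucleotides in Runx1 and 8 in Runx3, and the proximal ones 27 and 38. Over the whole 300-base windows GC content was 45% at the Runx1 distal start and 45.3% at the Runx2 start, against a median of 52.7% over all promoters. It was 63.7% at the Runx3 distal start, 69% at the Runx1 proximal start, 69.7% at the Cbfb start and 77.3% at the Runx3 proximal start.

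Open chromatin at the 3 starts with the tandem pair came and went, with a peak within 1 kb in 5 to 10 of the 15 lists, and the other 3 starts had one in 12 to 15. A peak within 1 kb was present in all 15 lists at the Runx1 proximal start (site chr16:92697156-92697617) and at the Cbfb start (chr8:105170336-105170920). The Runx1 distal start (site chr16:92825787-92826186) had a peak in 5 lists: day 0 and Thy1+, each with both shRNAs, and SSEA1+ with CTCF shRNA. It had none in SSEA1-Thy1- or GFP+ cells with either shRNA, in SSEA1+ control cells, or at day 10 or 12. Within 2.5 kb a peak was present in 11 lists, because of a neighbouring site upstream of the start. Runx2 had a peak at its start (chr17:44814777-44815191) in 10 lists: day 0, Thy1+, SSEA1-Thy1- and SSEA1+ with both shRNAs, and both lists of day 12. It was absent from both GFP+ lists and all 3 lists of day 10. As a background, the share of 17492 protein-coding genes with a peak within 1 kb of a start was 66.9% for the day 0 control list, 68.8% for Thy1+, 67.7% for SSEA1-Thy1-, 67% for SSEA1+ and 67.6% for GFP+ control cells. With CTCF shRNA it was 66.6%, 69.7%, 68.2%, 68.6% and 68%. It was 65.6%, 66.1% and 64% in the 3 lists of day 10 and 61.7% and 61.4% in those of day 12.

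Runx3 had a different order at its starts. The peak over its distal start (chr4:135120295-135120694) was present at day 0 and in Thy1+ cells with both shRNAs, absent from both SSEA1+ lists, and present again in both GFP+ lists. In SSEA1-Thy1- cells that peak was in the CTCF shRNA list, and the control list had instead a peak 0.96 kb inside the gene (chr4:135121407-135121806). No list of day 10 or 12 had it. The proximal start (chr4:135152296-135152917) had a peak in 12 lists and lacked one in the SSEA1-Thy1- control, SSEA1+ CTCF shRNA and GFP+ control lists. Within 2.5 kb a peak was present in all 15. At the Runx3 starts the presence of a peak thus differed between the shRNAs in both directions.

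**Figure D1:**
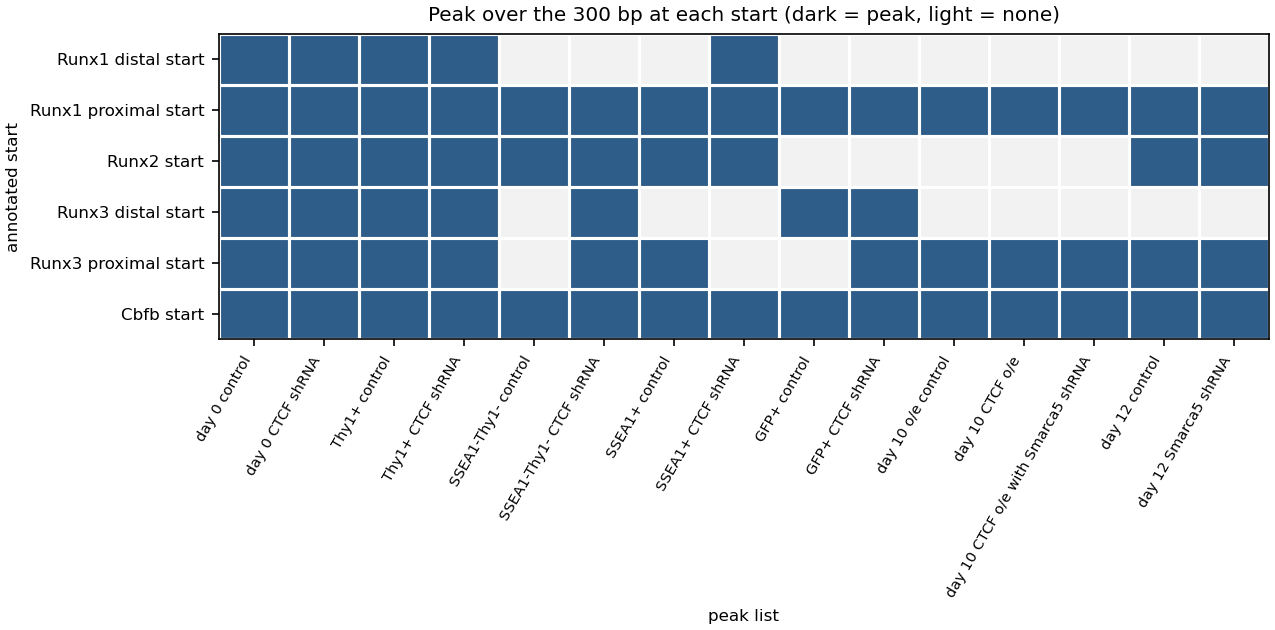
Presence (dark) or absence (light) of a peak over the 300-base window at each of the 6 annotated starts (rows) in each of the 15 peak lists (columns). The Runx1 proximal and Cbfb starts are dark in all 15 lists, and the Runx1 distal start is dark in 5.

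From day 0 to GFP+ control cells, Runx1 and Runx2 lost most of their day 0 sites. Cbfb kept 68.8% in the 50 kb window, 57.1% in a 10 kb window and 55.6% without sites in other coding genes. Runx3 kept 57.9% in the 50 kb window and 41.7% in a 100 kb window. In control cells of day 0, Thy1+, SSEA1-Thy1-, SSEA1+ and GFP+, in this order, Runx1 had 35, 50, 33, 23 and 14 sites. Runx2 had 46, 59, 34, 28 and 14. Both genes were highest in Thy1+ cells and lowest in GFP+ cells. Runx3 went from 19 at day 0 to 23, 18, 13 and 17, and so was lowest in SSEA1+ cells. Cbfb stayed between 15 and 21 sites, with 16, 21, 18, 17 and 15.

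Of the day 0 control sites, GFP+ control cells held 7 of 35 at Runx1 (20%, interval 8.44% to 36.9%) and 7 of 46 at Runx2 (15.2%, 6.34% to 28.9%). They held 11 of 19 at Runx3 (57.9%, 33.5% to 79.7%) and 11 of 16 at Cbfb (68.8%, 41.3% to 89.0%). Over all day 0 sites 67.7% were absent from GFP+ control cells and 32.3% were held, a share inside the Runx1 interval, above the Runx2 interval and below those of Runx3 and Cbfb. These intervals are for the 50 kb window with sites in other genes included, and intervals for other settings are not given here. At each of the 4 loci, as over all sites, the largest drop in day 0 sites fell between the Thy1+ and the SSEA1-Thy1- lists. In Thy1+ control cells 34, 42, 19 and 16 of these sites were still open at Runx1, Runx2, Runx3 and Cbfb, where 14.7% of all day 0 sites were absent. In SSEA1-Thy1- control cells the 4 loci held 19, 16, 13 and 12 (51.2% absent over all sites), and in SSEA1+ control cells 12, 11, 10 and 10 (61.7% absent).

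Relative to the length of the lists, the number of sites from day 0 to GFP+ control cells changed by a log2 of -0.54 at Runx1, -0.93 at Runx2, 0.60 at Runx3 and 0.66 at Cbfb. This relative log2 adds 0.5 to each count and subtracts the log2 ratio of the whole lists. The median over 17701 protein-coding genes was 0.50, and 10.9% of them lay below Runx1, 6.20% below Runx2, 56.6% below Runx3 and 61.7% below Cbfb. All 4 lay within the central 95% of genes. In the plain number of sites, Runx1 and Runx2 were at least 2-fold lower in GFP+ than in day 0 control cells, as were 20% of genes, and Runx3 and Cbfb were neither 2-fold lower nor 2-fold higher, which 1.94% of genes were.

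Along Runx1, closing of day 0 sites was nearly complete both upstream of the distal start and from the proximal start to the gene end. The regional counts are small, and 67.7% of all day 0 sites were absent from GFP+ control cells. Upstream of the distal start 6 of 7 sites were open at day 0, and the later control populations had 7 (Thy1+), 3 (SSEA1-Thy1-), 2 (SSEA1+) and 0 (GFP+). Between the starts 11 sites were open at day 0, and GFP+ control cells had 5, of which 3 were day 0 sites. By their centres the peaks over both Runx1 starts count as between the starts. The peak over the proximal start was open in all 15 lists. From the proximal start to the gene end 12 day 0 sites were reduced to 1 held in GFP+ control cells, beside 4 that were not open at day 0. Downstream of the gene 3 of 6 day 0 sites were held. In Runx2, the sites upstream of the start went from 5 to 0 and those in the gene from 37 to 9, whereas the downstream flank had 4 at day 0 and 5 in GFP+ control cells. Upstream of the Runx3 distal start 4 sites were open at day 0, 1 in SSEA1+ and 5 in GFP+ control cells. Inside the Cbfb gene 3 sites were open at day 0 and 0 in GFP+ control cells, while the flanks kept 11 of their 13 day 0 sites. The flanks here include the peak over the Cbfb start, whose centre lies 0.046 kb before the start, and sites in other genes. Likewise, the upstream sites of Runx2 and Runx3 include the peaks at the Runx2 start and the Runx3 distal start. Their centres lie 0.357 and 0.15 kb before the start.

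**Figure D2:**
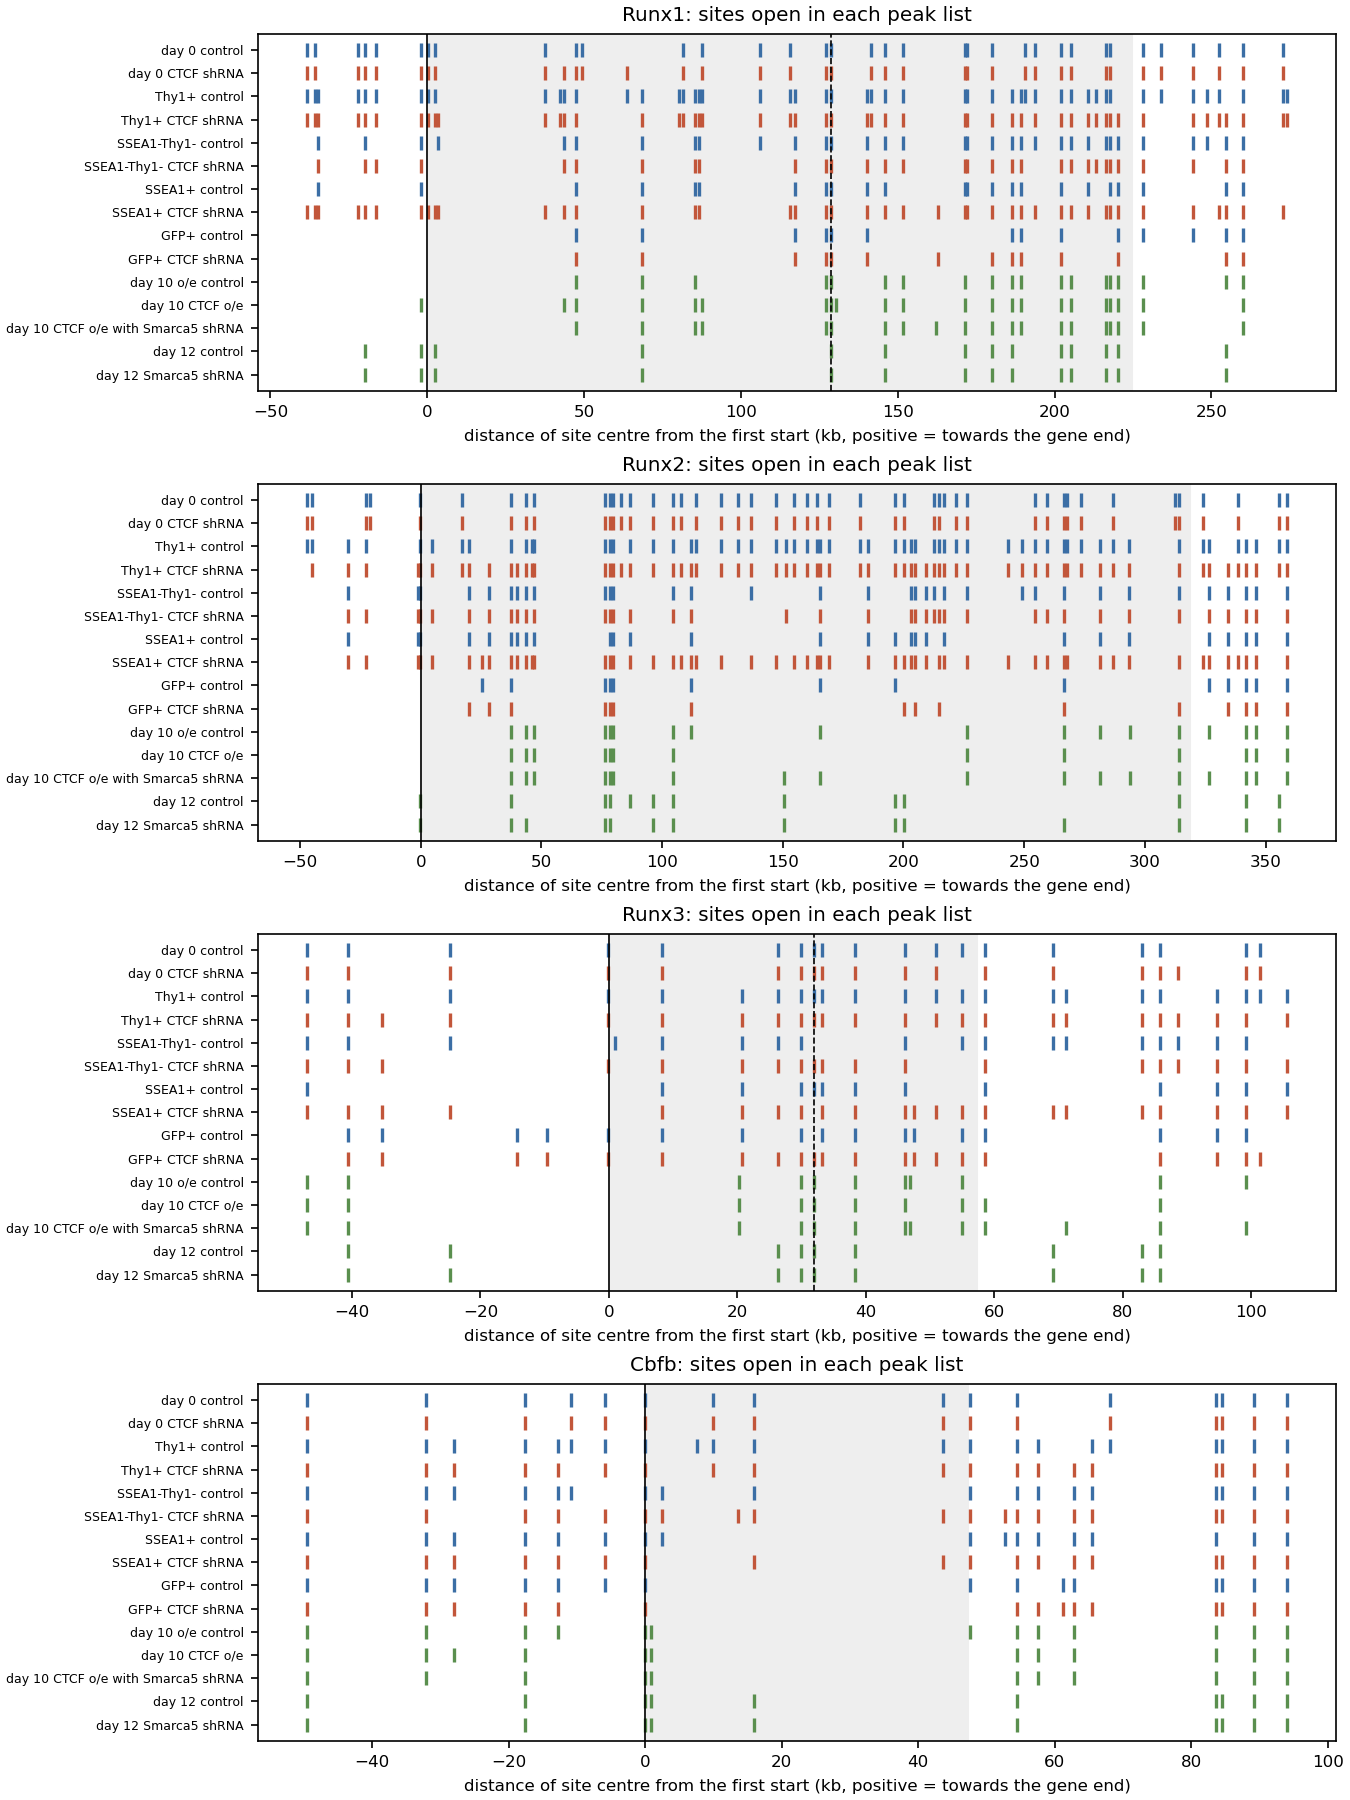
Open sites in each of the 15 peak lists (rows) by distance of the site centre from the first start (x axis, kb, positive towards the gene end), with the gene body in grey, the first start as a solid line and the second start as a dashed line. Blue ticks are control shRNA, orange CTCF shRNA and green the day 10 and day 12 lists; upstream of the Runx1 distal start the GFP+ rows are empty, and the SSEA1+ CTCF shRNA row has 7 ticks.

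The sites were sorted by the control populations in which they were open. Sites open in all 5 control populations were 6 of 54 at Runx1, 5 of 69 at Runx2, 6 of 29 at Runx3 and 9 of 25 at Cbfb, against 16% of all sites. Sites open at day 0 and in Thy1+ cells and in none of the later populations were 15 at Runx1 (27.8%, 16.5% to 41.6%) and 24 at Runx2 (34.8%, 23.7% to 47.2%). Runx3 had 2 and Cbfb 3 of this kind, and over all sites the share was 19.8%. Sites closed in between and open again in GFP+ cells were 5 of 29 at Runx3 (17.2%, 5.85% to 35.8%), against 1 at Runx1, 2 at Runx2, 2 at Cbfb and 3.16% of all sites. Sites that opened after day 0 and were open in GFP+ cells were 7, 7, 6 and 4 for Runx1, Runx2, Runx3 and Cbfb (16% of all sites). Among those at Runx3, 2 sites 14.3 and 9.59 kb upstream of the distal start were open in both GFP+ lists and in none of the other 13. The same was true of a site 61.2 kb from the Cbfb start (chr8:105231636-105232035). The share of all sites with this pattern is not given here. Sites confined to intermediates were 12, 16, 4 and 5 (24.6% of all sites). The remaining classes were small. Sites open at day 0 alone were 1, 4, 0 and 0 (7.87% of all sites), those last open in SSEA1-Thy1- cells 6, 6, 4 and 2 (6.27%), those last open in SSEA1+ cells 6, 4, 1 and 0 (5.07%), and other day 0 sites closed in GFP+ cells 0, 1, 1 and 0 (1.17%).

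**Figure D3:**
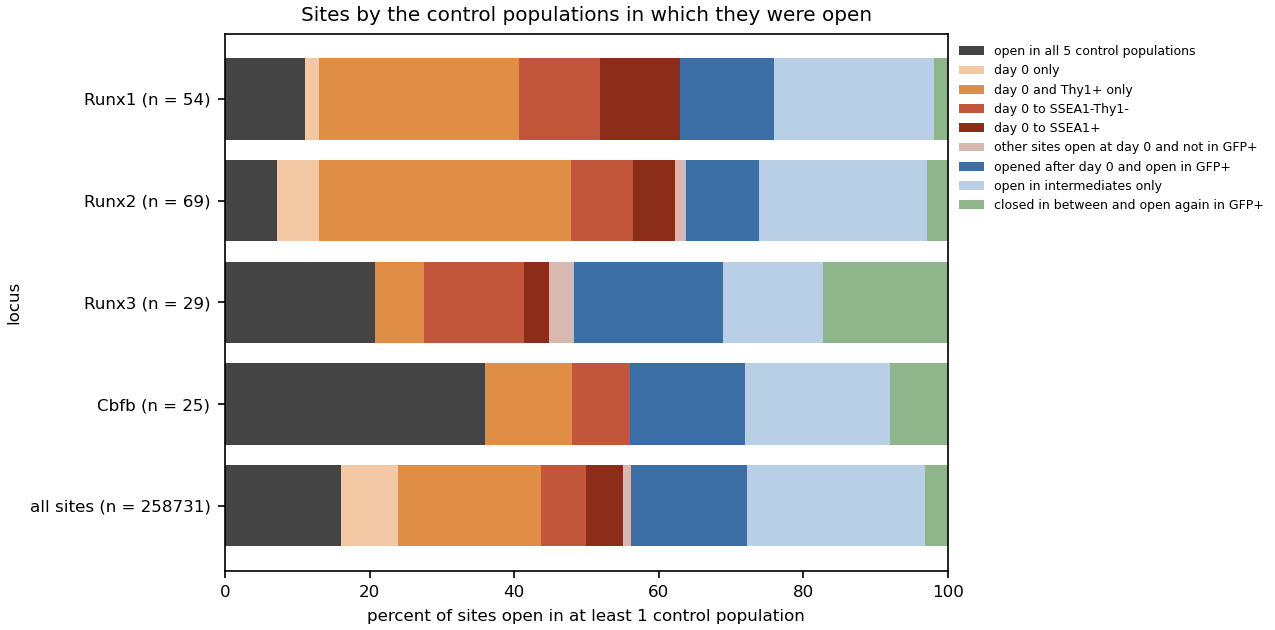
Share (x axis, percent) of the sites open in at least 1 control population that fall into each of 9 classes of opening and closing (colours), for the 4 loci and for all sites of the catalogue (rows). Sites open at day 0 and in Thy1+ cells only make up 34.8% at Runx2 and 27.8% at Runx1, and sites open in all 5 control populations 36% at Cbfb.

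Sites not open at day 0 made up a larger part of each later list at Runx1. At Runx1 the Thy1+ control list had 16 such sites of 50, the SSEA1-Thy1- list 14 of 33, the SSEA1+ list 11 of 23 and the GFP+ list 7 of 14, where they were 32.5%, 50.3%, 56.6% and 45.5% of the whole lists. At Runx2 they were 17 of 59, 18 of 34, 17 of 28 and 7 of 14, at Runx3 4 of 23, 5 of 18, 3 of 13 and 6 of 17, and at Cbfb 5 of 21, 6 of 18, 7 of 17 and 4 of 15.

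Sites that first opened in Thy1+ control cells numbered 16 at Runx1, 17 at Runx2, 4 at Runx3 and 5 at Cbfb. Of these, 9, 12, 3 and 4 were open in SSEA1+ control cells and 5, 5, 2 and 2 in GFP+ control cells. Over all sites that first opened in Thy1+ cells, 80.5% were open in SSEA1+ control cells, against 56.3% at Runx1 and 70.6% at Runx2, and 32.6% in GFP+ control cells.

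Sites open in all 15 lists were 2 of 57 at Runx1, 2 of 71 at Runx2, 2 of 31 at Runx3 and 7 of 27 at Cbfb, where 7.77% of all sites were. Those of Runx1 were the proximal start and a site 202 kb from the distal start (chr16:92623905-92624348). The 2 of Runx2 lay 37.5 kb (chr17:44776858-44777299) and 78.4 kb (chr17:44735974-44736472) inside the gene. The former lies within 1 kb of a start of the overlapping gene Supt3. Those of Runx3 lay inside the gene, shortly before its proximal start (chr4:135150397-135150800), and 85.8 kb from the distal start (chr4:135206280-135206693). At Cbfb they included the start itself and also sites in neighbouring genes, such as the site at the start of D230025D16Rik (chr8:105224928-105225401).

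CTCF shRNA was set against control shRNA in 5 populations. In SSEA1+ cells the 3 Runx loci gained many sites and lost almost none, and Cbfb changed little. Runx1 had 23 sites in the control and 42 with CTCF shRNA, with 0 lost and 19 gained. Runx2 had 28 and 55, with 0 lost and 27 gained. Runx3 had 13 and 22, with 1 lost and 10 gained, and Cbfb 17 and 18, with 2 lost and 3 gained. Over all sites of these lists 7.99% were lost and 32% gained. Gained shares at the loci were 45.2% at Runx1 (29.8% to 61.3%), 49.1% at Runx2 (35.4% to 62.9%), 45.5% at Runx3 (24.4% to 67.8%) and 16.7% at Cbfb (3.58% to 41.4%). The interval of Runx2 lies above 32%, and those of the other 3 include it.

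Most sites gained in SSEA1+ cells were open in the control lists of day 0 and of Thy1+ cells. Of the sites gained in SSEA1+ cells, 16 of 19 at Runx1, 23 of 27 at Runx2, 7 of 10 at Runx3 and 3 of 3 at Cbfb were open in the day 0 control (81.6% over all gained sites). In the Thy1+ control 17, 25, 8 and 3 were open (89.0%), and in the SSEA1-Thy1- control 8, 6, 7 and 2 (37.9%). The shares at the loci are thus near those of all gained sites. Seen from day 0, 23 sites of Runx1 were absent from the SSEA1+ control, and 16 of them (69.6%, 47.1% to 86.8%) were open with CTCF shRNA. At Runx2 these were 23 of 35 (65.7%, 47.8% to 80.9%), at Runx3 7 of 9 and at Cbfb 3 of 6, against 50.5% over all such sites. All 7 sites upstream of the Runx1 distal start were open with CTCF shRNA, where the control had 2, and in the Runx2 gene 44 sites were open where the control had 20.

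The list of SSEA1+ cells with CTCF shRNA overlapped that of Thy1+ control cells at 38 of its 42 Runx1 sites (76% of the 50 Thy1+ sites), 48 of its 55 Runx2 sites (81.4% of 59), 20 of its 22 Runx3 sites (87.0% of 23) and 17 of its 18 Cbfb sites (81.0% of 21). Over all sites these shares were 85.9% and 81.1%. Site numbers at markers also differed: sites at the 10 fibroblast markers numbered 97 in SSEA1+ control cells and 172 with CTCF shRNA, and those at the 10 pluripotency markers 114 and 124. Those at the 10 endothelial markers numbered 112 and 158, and those at the 10 haematopoietic markers 109 and 124. The whole lists held 135422 and 183247 sites. The part of fibroblast-like cells in the sorted SSEA1+ sample in the gain at Runx1, Runx2 and Runx3 was not tested.

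In the other 4 populations the loci changed by a few sites. At day 0 the lost and gained sites were 0 and 2 at Runx1, 1 and 0 at Runx2, 1 and 1 at Runx3 and 0 and 0 at Cbfb, where 4.44% of all sites were lost and 4.85% gained. Thy1+ cells lost 3, 1, 1 and 3 sites and gained 3, 7, 2 and 1 at Runx1, Runx2, Runx3 and Cbfb (8.2% lost and 16.4% gained over all sites). SSEA1-Thy1- cells lost 4, 2, 5 and 2 and gained 2, 6, 6 and 4 (8.74% and 15.8%). In this population Runx3 exchanged 5 of 18 control sites for 6 others, which left its number at 19. GFP+ cells lost 2, 4, 0 and 2 and gained 2, 6, 4 and 2 (14.3% and 24.3%), and all 4 sites gained at Runx3 were open at day 0 and in Thy1+ control cells, as were 48.6% (day 0) and 76.9% (Thy1+) of all sites gained in GFP+ cells.

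**Figure D4:**
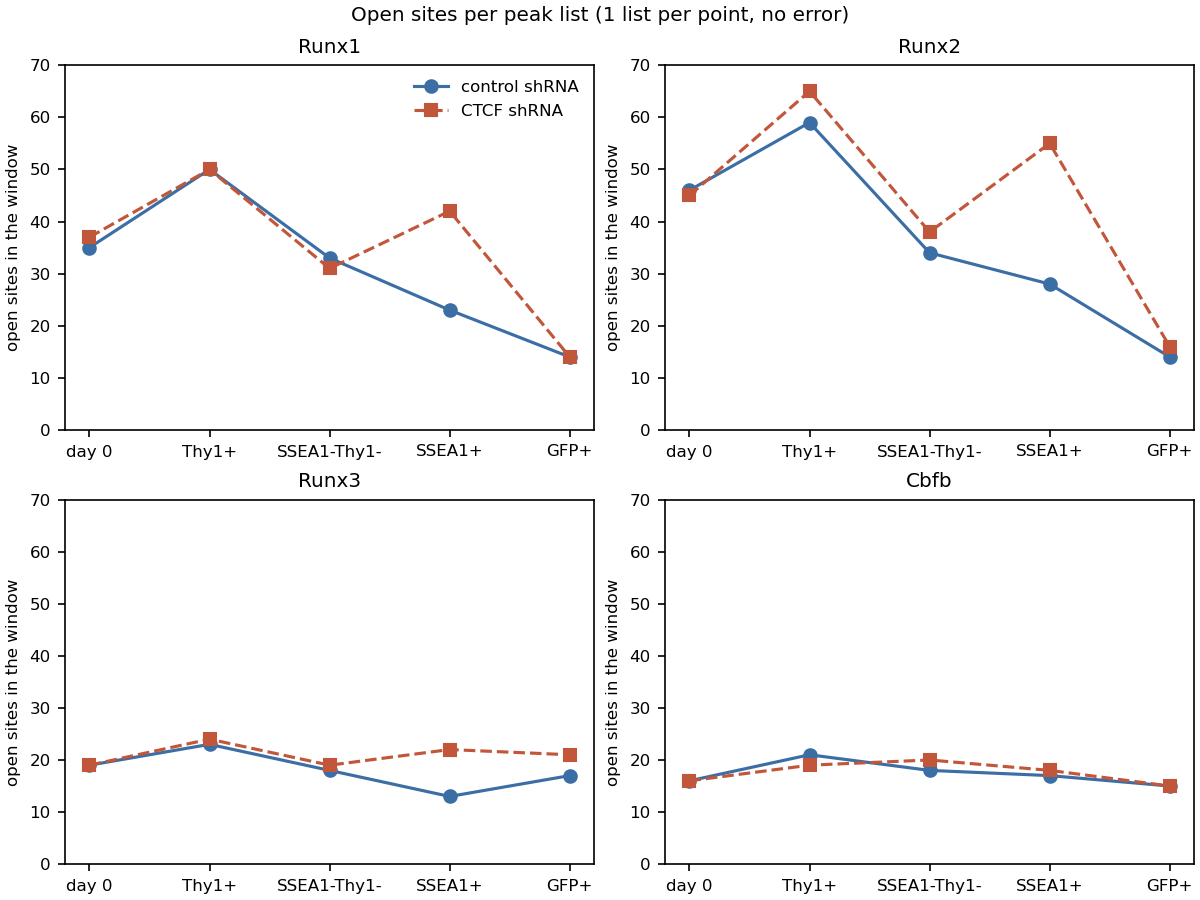
Number of open sites (y axis) in the window of each gene in the 5 populations (x axis), with control shRNA (blue circles) and CTCF shRNA (orange squares), 1 list per point. The 2 lines separate most in SSEA1+ cells, at 23 and 42 sites for Runx1 and 28 and 55 for Runx2, and at these genes lie within 2 sites of each other in GFP+ cells.

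Relative to list length, the change with CTCF shRNA in SSEA1+ cells was a log2 of 0.42 at Runx1, 0.53 at Runx2, 0.30 at Runx3 and -0.36 at Cbfb, with a median of -0.16 over all genes. Of all genes 94.5% lay below Runx1, 96.6% below Runx2, 90.4% below Runx3 and 19.2% below Cbfb, so all 4 were inside the central 95%. The median of the fibroblast markers was 0.43 and that of the pluripotency markers -0.32. These SSEA1+ values are for the 50 kb window. With a 10 kb window the SSEA1+ relative log2 was 0.18 at Runx1, 0.61 at Runx2, -0.0002 at Runx3 and -0.44 at Cbfb. The excess over list length at Runx3 was thus absent in the narrower window. Over the 5 populations the mean relative log2 in the 50 kb window was -0.01 ± 0.26 (SD) at Runx1, 0.11 ± 0.23 at Runx2, 0.06 ± 0.15 at Runx3 and -0.16 ± 0.17 at Cbfb. It was above 0 in 2, 4, 2 and 1 of the 5 pairs. Flipping the signs of the 5 pairs (exact permutation test, two-sided), with Benjamini-Hochberg adjustment over 17701 genes, gave p = 1 for Runx1 (adjusted 1), 0.3125 for Runx2 (adjusted 0.737), 0.5625 for Runx3 (adjusted 0.864) and 0.1875 for Cbfb (adjusted 0.639). The smallest p that 5 pairs allow is 0.062, which 13.1% of genes reached, and no gene had an adjusted p under 0.05, so the test could not have called a gene.

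**Figure D5:**
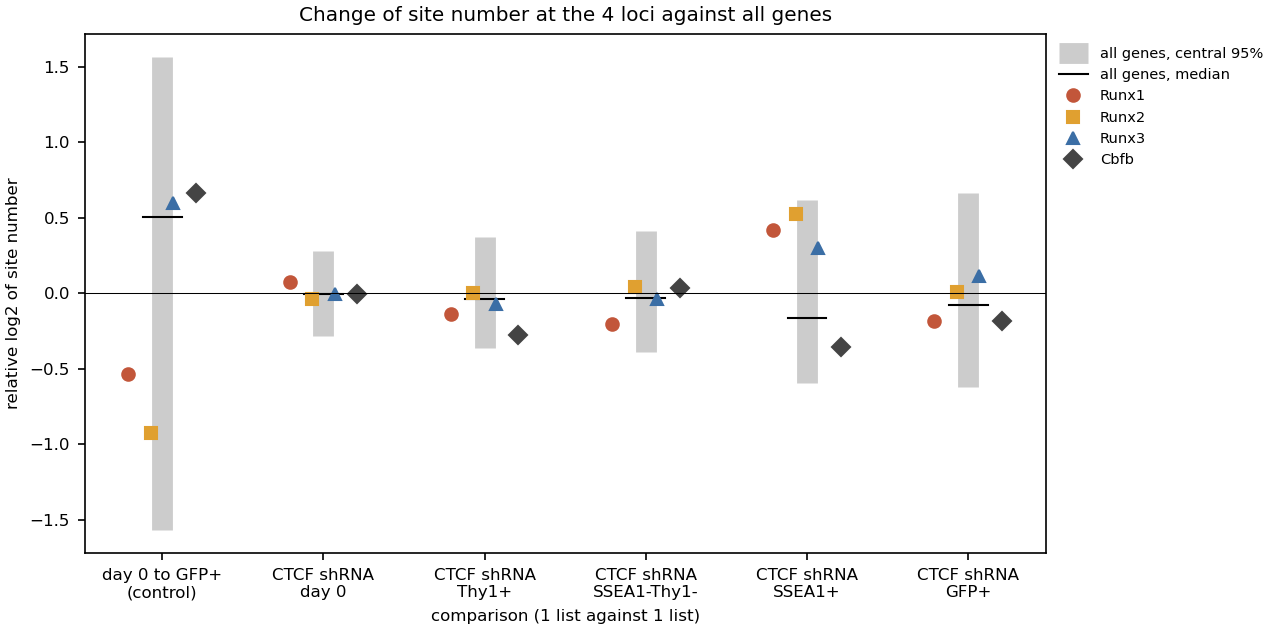
Relative log2 of site number (y axis) in the step from day 0 to GFP+ control cells and with CTCF shRNA in each of the 5 populations (x axis); symbols are the 4 genes, spread sideways for legibility, the grey bar is the central 95% of 17701 genes and the black line their median. In SSEA1+ cells Runx1, Runx2 and Runx3 lie at 0.42, 0.53 and 0.30, above the median of -0.16, and Cbfb at -0.36 below it. All values are for the 50 kb window.

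Sites that responded to CTCF shRNA in several populations were few. Of 179 sites of the 4 loci open in day 0 or sorted lists, 87 were gained in at least 1 pair (45.1% of all sites) and 18 in at least 2 (10.6%), and 32 were lost in at least 1 (20% of all sites) and 2 in at least 2 (2.12%). None was lost in 3 or more (0.205%). Gains in 3 of the 5 pairs, the largest number seen, occurred at a site 35.3 kb upstream of the Runx3 distal start (chr4:135085114-135085513; Thy1+, SSEA1-Thy1- and SSEA1+) and at a site 215 kb inside Runx2 (chr17:44599865-44600264; SSEA1-Thy1-, SSEA1+ and GFP+), against 1.21% of all sites. The Runx3 site was open in both GFP+ lists and the Runx2 site at day 0 and in Thy1+ cells with both shRNAs. The losses in 2 pairs were at a site 54.9 kb from the Runx3 distal start (chr4:135175353-135175815; day 0 and SSEA1-Thy1-), which was gained in SSEA1+ cells, and at a site 10.9 kb upstream of Cbfb (chr8:105159586-105159985; Thy1+ and SSEA1-Thy1-).

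At day 10, the list with CTCF overexpression had fewer sites than its control at Runx2 and more at Runx1. Runx2 had 18 sites in the overexpression control and 13 with CTCF, with 5 lost and 0 gained. Runx1 had 19 and 22, with 1 lost and 4 gained. Runx3 had 11 and 10 (2 lost, 1 gained) and Cbfb 13 and 12 (2 lost, 1 gained). Over all sites 16.8% were lost and 10.9% gained, and these shares lie inside the intervals of the loss at Runx2 (27.8%, 9.69% to 53.5%) and of the gain at Runx1 (18.2%, 5.19% to 40.3%). One site gained at Runx1 lay upstream of its distal start.

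Smarca5 shRNA on top of CTCF overexpression gave Runx2 18 sites against 13, with 0 lost and 5 gained, and Runx3 13 against 10, with 0 lost and 3 gained. Runx1 lost 3 and gained 1, and Cbfb lost 1 and gained 0 (18.3% lost and 16.8% gained over all sites). This comparison and the preceding one share the CTCF overexpression list. By site, 4 at Runx2 and 2 at Runx3 were open in the overexpression control, absent with CTCF overexpression and open with Smarca5 shRNA added, and 0 at Runx1 and Cbfb. Together these were 8.57% of the 70 sites open at day 10, and 8.27% of all day 10 sites had this pattern. Of the 70 sites, 51 were open in all 3 lists (72.9%, against 62.5% over all sites). At day 12 Smarca5 shRNA left Runx1, Runx3 and Cbfb with the same sites as the control, at 14, 9 and 10, and Runx2 lost 1 and gained 2 of 13 and 14 (5.39% lost and 6.82% gained over all sites). In the relative log2 the change at Runx2 was -0.35 with CTCF overexpression (8.83% of genes lower), 0.48 with Smarca5 shRNA added (93.8% lower) and 0.08 at day 12 (82.5% lower).

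The unsorted lists showed which sites they shared with the sorted ones. Of the 70 sites of the loci open at day 10 and the 48 open at day 12, 63 and 46 were also open in a day 0 or sorted list (90% and 95.8%, against 90.5% and 96.2% over all sites). At day 12 the unsorted control held 39 day 0 control sites among its 46 (84.8%, against 84.1% over all sites), and 23 sites of the GFP+ control (50%, against 71.4%). The peak at the Runx2 start was among those open in both unsorted lists of day 12 and absent from both GFP+ lists, which were also of day 12.

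Genes that work with RUNX proteins were examined as lists. Of 21 cofactors and regulators tested, 4 had a number of sites at least 2-fold lower in GFP+ than in day 0 control cells and 0 one at least 2-fold higher, where 20% of all genes were lower and 1.94% higher. The 4 were Wwtr1 (TAZ, a transcriptional coactivator; 34 sites at day 0), Smad3 (a TGF-β signal transducer; 33), Ets1 (a DNA-binding partner of RUNX1; 32) and Smurf2 (a ubiquitin ligase; 20). In GFP+ control cells they had 11, 16, 7 and 7. The list's median relative log2 was 0.39, against 0.50 for all genes. Of its 17 genes with a start in the promoter table, 17 had a peak there at day 0 and 16 in GFP+ control cells. The shares of all protein-coding genes were 66.9% and 67.6%. Of 10 bone and cartilage genes regulated by RUNX2, 3 were lower and 0 higher: Spp1 (osteopontin), with 20 and 10 sites, Col10a1 (collagen X), with 8 and 4, and Mmp13 (a collagenase), with 9 and 2. Their median was 0.69. Of 10 blood genes that RUNX1 regulates, such as Spi1 and Csf1r, 0 were lower and 0 higher, and the median was 0.81. The 3 shares of genes lower, 4 of 21, 3 of 10 and 0 of 10, stand beside the background of 20%. Several of these genes neighbour each other (Bglap, Bglap2 and Bglap3, for example) and share sites.

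Other genes with the most similar course of site number over the 10 day 0 and sorted lists, as a share of each list, were Pid1, Plekhm3 and Mitf for Runx1 (Pearson correlations of 0.978, 0.967 and 0.966). For Runx2 they were Ebf1 (0.991), Hibadh (0.983) and F13a1 (0.982), for Runx3 Ctif (0.992), Fxyd7 (0.989) and S1pr2 (0.987), and for Cbfb Fau (0.990), Hpca (0.986) and Neurl2 (0.986). These are the highest values among many genes over 10 lists of the same libraries, given as a description.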

How the data were processed

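ATAC-seq peak lists were used as deposited, 1 list per group of 2 or 3 samples. Per the submitters' processing notes, MACS2, Bowtie2, Picard, SAMtools, Trim Galore and cutadapt were among the tools, with builds mm10 and GRCm38. The peak threshold, and whether samples were pooled before peak calling, is not given in the sources used here. In the lists the deposited score column is 0 throughout, and depth is unknown. Peaks of the 15 lists that overlapped by at least 1 bp were merged into sites. A site counted as open in a list that had a peak in it. Gene positions and promoter sequences came from RefSeq (GRCm38.p6).

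The relative log2 used a pseudocount of 0.5 and genes with at least 5 sites on average (python 3.11.15, pandas 2.3.3, scipy 1.17.1). The sign-flip test was tested on simulated data. Named genes were the 4 members, list genes past 2-fold, and the 3 most similar genes with at least 10 sites on average. Named sites were those at starts that differed between lists and those lost or gained in most CTCF shRNA pairs. The sites open in all 15 lists, the 2 upstream Runx3 sites, the Cbfb site with their pattern and the other regional values were chosen after their values were seen. Members and lists were chosen with earlier results of these data known. The peak sequences were not used here. Alternatives were other windows, overlaps, merging, start distances and leaving out sites in other genes.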

Additional observations from a re-analysis of the deposited data

Results flagged for a closer look

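Site numbers changed in opposite directions with CTCF shRNA in different populations at 3 of the loci, which is what drew attention to them; the difference between populations was not tested, since each population has 1 list per shRNA. At Runx1 the number of sites with CTCF shRNA minus control was 19 in SSEA1+ cells and -2 in SSEA1-Thy1- cells. At Runx2 it was 27 in SSEA1+ cells and -1 at day 0. Cbfb had a difference of 2 in SSEA1-Thy1- cells and -2 in Thy1+ cells. The lists themselves differed in length, most in SSEA1+ cells (135422 sites with control and 183247 with CTCF shRNA), and the part of list length in these differences was not tested.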

How the results depend on the processing

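The shares of day 0 sites held, of sites lost and gained, the relative log2 values and the lists with a peak near each start were recomputed with windows of 10 and 100 kb, an overlap of at least 200 bp, peaks not merged within a list, without sites in other protein-coding genes, and a start distance of 2.5 kb. Of 126 recomputed main values 123 kept their direction or stayed inside the counting interval of the reported value, which leaves room for large shifts. Runx3 held 57.9% of its day 0 sites as reported, 72.7% with a 10 kb and 41.7% with a 100 kb window. Its mean relative log2 went from 0.0595 to 0.0143 with 10 kb, that of Cbfb from -0.16 to -0.25 without sites in other genes, and the share lost at the 4 loci in SSEA1+ cells from 3.70% to 6.10% with the stricter overlap. The mean relative log2 of Runx1 over the 5 CTCF shRNA pairs, -0.01 as reported, was 0.0584 with a 100 kb window and 0.0168 with peaks not merged; it is near 0 in each case, and the cause was not tested. The number of lists with a peak near the Runx1 distal start went from 5 to 11 at 2.5 kb, by the construction of that setting. No paired analysis was possible because each group has 1 peak list and the lists carry no replicate numbers; the sign-flip test paired the control and CTCF shRNA lists of each population, not replicates. Leaving out a replicate and a stricter peak threshold could not be run, since each group is 1 list and all scores are 0. Without read depth, a peak missing from a list cannot be told apart from one under its detection limit.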
